A study of Mus musculus with 8 samples.

Results

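The comparison described here set 2 bone marrow chimeric mice that could carry the toxin receptor in marrow-derived cells alone (LW) against 2 chimeric mice that carried it nowhere (WW). The arrays were chosen by their titles and are 4 of the 8 in the series, with 1 array per mouse. LW mice were wild-type recipients of LysM-DTR marrow, and WW mice were wild-type recipients of wild-type marrow. All were male, aged 22 weeks, and had been given diphtheria toxin, with lungs taken 72 hours later. In the other groups the recipient was LysM-DTR, and the donor was LysM-DTR (LL) or wild type (WL). Every group received the toxin, so no array shows a lung without it. The labels used here give neither the conditioning of the recipients nor the share of lung cells that came from the donor. Nothing says whether the mice of a group came from separate transplants, so p-values measure only the spread between these mice.

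Diphtheria toxin enters a cell through its receptor and stops protein synthesis by modifying elongation factor 2 on a residue called diphthamide. Mouse cells resist it because their own heparin-binding growth factor hardly binds the toxin, and the transgenic receptor removes that resistance in the cells that make it. The lysozyme M promoter is active in neutrophils, monocytes and macrophages, and in the lung also in alveolar type 2 cells, which secrete surfactant. In LW chimeras the type 2 cells belong to the wild-type recipient, so the receptor was possible only in cells that grew from the marrow.

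No gene passed the test between LW and WW lungs. Expression is given as log2 of the processed intensity minus that of the 75th percentile of the array, and differences are LW minus WW on that scale. Of 56605 probes, 34963 were well above background on all 4 arrays, and they stand for 23047 genes of 37074 gene names, each read by its brightest probe. In limma's moderated test 0 of 23047 genes were higher in LW (0%) and 0 were lower (0%) at a Benjamini-Hochberg adjusted p under 0.05, and the smallest adjusted p was 0.364. At an unadjusted p under 0.05 the test listed 1218 genes (5.28%), 407 of them higher in LW (1.77%) and 811 lower (3.52%). For the median gene the 95% interval of the difference reached 0.29 to either side, which is 1.22-fold, and for 94.2% of genes the whole interval lay within 1 of no difference. An exact permutation test of any single gene in 2 against 2 mice cannot go below p = 0.333.

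The spread between mice was about as large as the distance between the groups. The median absolute difference per gene was 0.11 between the LW mice and 0.13 between the WW mice, and from 0.11 to 0.13 between an LW and a WW mouse. Both values of one group lay above both of the other for 7678 genes (33.3%), with LW above for 3195 (13.9%) and below for 4483 (19.5%). The gap exceeded both within-group differences for 2121 genes (9.2%), LW above for 833 (3.61%) and below for 1288 (5.59%). The median difference over all genes was -0.01, with 45.5% of genes above 0 and 54.5% below. These shares are the background against which the counts for each list of genes are to be read. In whole lung RNA, fewer cells of a type and less RNA per cell cannot be told apart.

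**Figure D1:**
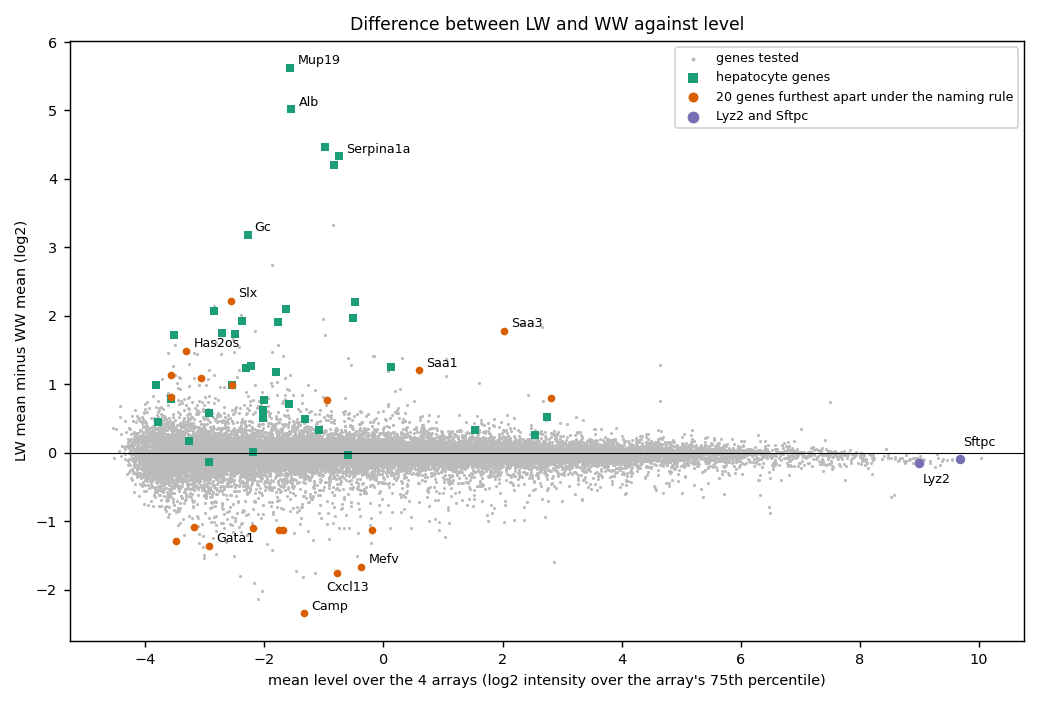
The difference LW minus WW (log2, vertical) is plotted against the mean level over the 4 arrays (log2 intensity over the 75th percentile of the array, horizontal) for 23047 genes. Hepatocyte genes, listed after their values were seen, reach the largest differences, up to 5.62 for Mup19, where LW mice were at -1.20 and 3.69. Lyz2 (-0.15) and Sftpc (-0.09) lie near 0.

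The LW mice differed from each other in transcripts of other tissues and of blood cells. LW replicate 2 held transcripts of liver plasma proteins. Of the 20 genes that were furthest above the other 3 arrays in this mouse, 18 belong to a list of hepatocyte genes drawn up after their values were seen. Albumin (Alb) was at -1.92 and 3.84 in LW mice, against -3.66 and -4.45 in WW mice. Serpina1a, an antitrypsin of plasma, was at -1.40 and 4.24 in LW mice and -3.00 and -2.83 in WW mice. Mup19, a major urinary protein made in the liver, was at -1.20 and 3.69 in LW mice and -4.37 and -4.38 in WW mice. In each case LW replicate 2 was far above, and LW replicate 1 was also above both WW mice.

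Of 37 measured hepatocyte genes, 30 were highest in LW replicate 2 among the 4 mice, and 26 exceeded the other 3 arrays by more than 1. Relative to the WW mean, the mean of the list was 0.40 and 2.71 in LW mice, 0.65 and -0.08 in LL mice, 0.18 and -0.25 in WL mice, and -0.04 and 0.04 in WW mice. The median difference of the list was 1.18, with 35 of 37 genes above 0, which describes a list picked for these values. Without LW replicate 2 the median was 0.23, with 26 of 37 above 0. Another list, of liver-type and xenobiotic metabolism, had a median of 0.04, with 16 of 26 genes above 0. Not every hepatocyte gene did the same: the cytochrome Cyp3a11 was at -3.01 and -2.98 in LW mice and -2.71 and -3.00 in WW mice, and Mup3 at -0.70 and -0.53 in LW mice and -0.70 and -0.48 in WW mice. The part these transcripts have in other differences was not tested, and the monocyte, B cell and type 2 cell counts below are also given without LW replicate 2.

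**Figure D2:**
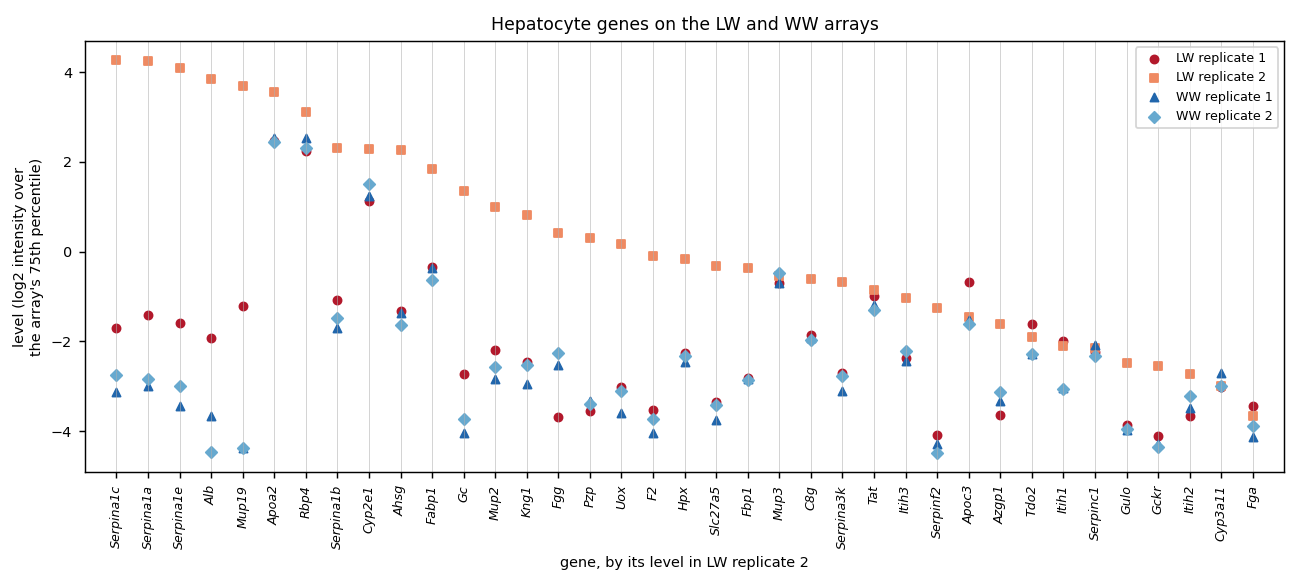
Level of each of 37 hepatocyte genes (log2 intensity over the 75th percentile of the array) on the 4 arrays, ordered by LW replicate 2. That mouse is highest for 30 of the genes, and LW replicate 1 lies above both WW mice for 26.

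Antibody and neutrophil transcripts also differed between mice of a group. The mean of 157 immunoglobulin segments, relative to the WW mean, was 0.76 and 0.09 in LW mice, -1.21 and -0.13 in LL mice, 1.31 and -0.01 in WL mice, and -0.06 and 0.06 in WW mice. The mean of 22 neutrophil genes was -0.60 and 0.00 in LW mice, -0.25 and 1.09 in LL mice, -0.80 and 0.54 in WL mice, and -0.26 and 0.26 in WW mice. In each of the 4 groups the array numbered 1 was the lower one for neutrophil genes. The share of spots above background was 66.3% and 66.9% in LW mice, against 66.7% and 72.3% in WW mice. All 8 arrays lay on 1 slide read in 1 scan. LW and WW shared column 2 of the slide, LW on places 1 and 2 and WW on places 3 and 4, so place and marrow genotype cannot be told apart.

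The labelled tissue showed its defining markers. Surfactant protein C (Sftpc), a product of type 2 cells, was at 9.70 and 9.57 in LW mice and 9.63 and 9.81 in WW mice. The club cell secretoglobin Scgb1a1 was at 9.50 and 9.50 in LW mice and 9.49 and 9.68 in WW mice. The groups overlapped in both genes.

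Lyz2, the gene whose promoter drives the receptor, was at 8.99 and 8.84 in LW mice and 9.05 and 9.09 in WW mice, a difference with a 95% interval of -0.41 to 0.10 (limma adjusted p = 0.985). A dimmer probe of the gene was at 4.78 and 4.36 in LW mice and 4.79 and 4.39 in WW mice, so that mice of the same replicate number were closer than mice of the same group. Its bases are shown because the promoter of this gene drives the receptor, though the recipient's type 2 cells make the transcript too, and it lies on chr10:116719175-116719234 (mm9, minus strand).
Lyz2: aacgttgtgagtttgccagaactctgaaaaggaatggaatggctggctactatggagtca
The close copy Lyz1 was at 7.42 and 7.25 in LW mice and 7.50 and 7.54 in WW mice, and cross-hybridisation between the copies was not measured.

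Genes of toxin entry and action also lay close together. Hbegf, the mouse form of the toxin receptor, was at 2.28 and 2.25 in LW mice and 2.30 and 2.18 in WW mice, and whether its probe reads the transgene is not known. Elongation factor 2 (Eef2), the target of the toxin, was at 6.53 and 6.57 in LW mice and 6.49 and 6.54 in WW mice. The 11 genes of the list, diphthamide synthesis included, had a median of 0.03, with 6 above and 5 below 0. Their differences ran from -0.36 to 0.29. Both LW mice were above both WW mice in 2 of the 11 and below in 5, against 13.9% and 19.5% of all genes. Of the diphthamide enzymes Dph6 was at -0.29 and -0.35 in LW mice and -0.55 and -0.53 in WW mice, and Dph7 at -0.41 and -0.42 in LW mice and -0.36 and 0.25 in WW mice.

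The genes furthest apart were named by size among those whose gap exceeded both within-group differences, 10 in each direction, and none of the 20 passed the test. Slx, an X-linked gene of a multicopy family expressed in spermatids, had the largest positive difference among these, at -1.48 and -1.41 in LW mice, against -3.56 and -3.78 in WW mice (2.22, SE 0.11, limma adjusted p = 0.364). Copies of such a family cannot be told apart by 1 probe. Saa3, a serum amyloid made in the lung itself, was at 3.05 and 2.78 in LW mice, against 1.25 and 1.02 in WW mice (1.78, SE 0.14, limma adjusted p = 0.677). Has2os, the antisense transcript of a hyaluronan synthase gene, was at -2.26 and -2.87 in LW mice, against -3.96 and -4.15 in WW mice. Fcna, the macrophage lectin ficolin A, was at -2.96 and -3.03 in LW mice, against -4.04 and -4.23 in WW mice (1.14, SE 0.10, limma adjusted p = 0.677). Fez1, Itih1, Kcnab1, Cfb and Ddc had differences between 0.77 and 1.09. Itih1 and Cfb each had a 2nd probe above background, with a difference of 0.02 for Itih1 and 0.99 for Cfb.

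In the other direction Camp, the cathelicidin of neutrophil granules, was furthest from WW, at -2.86 and -2.17 in LW mice, against 0.33 and -0.67 in WW mice (-2.34, SE 0.42, limma adjusted p = 0.78). Cxcl13, a chemokine that draws B cells, was at -1.49 and -1.82 in LW mice, against -0.01 and 0.20 in WW mice (-1.75, SE 0.15, limma adjusted p = 0.677). Mefv, the inflammasome sensor pyrin of neutrophils and monocytes, was at -1.24 and -1.16 in LW mice, against 0.12 and 0.80 in WW mice (-1.66, SE 0.24, limma adjusted p = 0.753). Both LW mice lay below both WW mice in each. Lrrc25, a leucine-rich repeat protein of myeloid cells, was at -2.44 and -2.07 in LW mice and -1.29 and -0.96 in WW mice. The lipid transporter Mfsd2a was at -1.03 and -0.46 in LW mice and 0.17 and 0.58 in WW mice, and Mid1 had a difference of -1.13. The 3 probes of Mid1 above background ran from -1.13 to -0.06, and the 2 of Mefv gave -1.66 and -0.90.

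The 60-base probes behind 4 of the tightest of these differences are printed because each gene was read by 1 probe above background, so that its value is that of these bases. The Slx probe lies on chrX:25950296-25950355, Saa3 on chr7:53967559-53967618 and Fcna on chr2:25480749-25480808, all on the minus strand of mm9, and Tubb1, the tubulin of the platelet rim, on chr2:174283277-174283336 on the plus strand.
Slx: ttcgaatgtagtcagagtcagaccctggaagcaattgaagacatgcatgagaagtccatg
Saa3: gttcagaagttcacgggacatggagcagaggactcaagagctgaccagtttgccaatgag
Fcna: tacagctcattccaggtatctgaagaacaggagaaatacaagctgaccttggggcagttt
Tubb1: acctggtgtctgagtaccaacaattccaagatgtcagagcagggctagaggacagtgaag

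**Figure D3:**
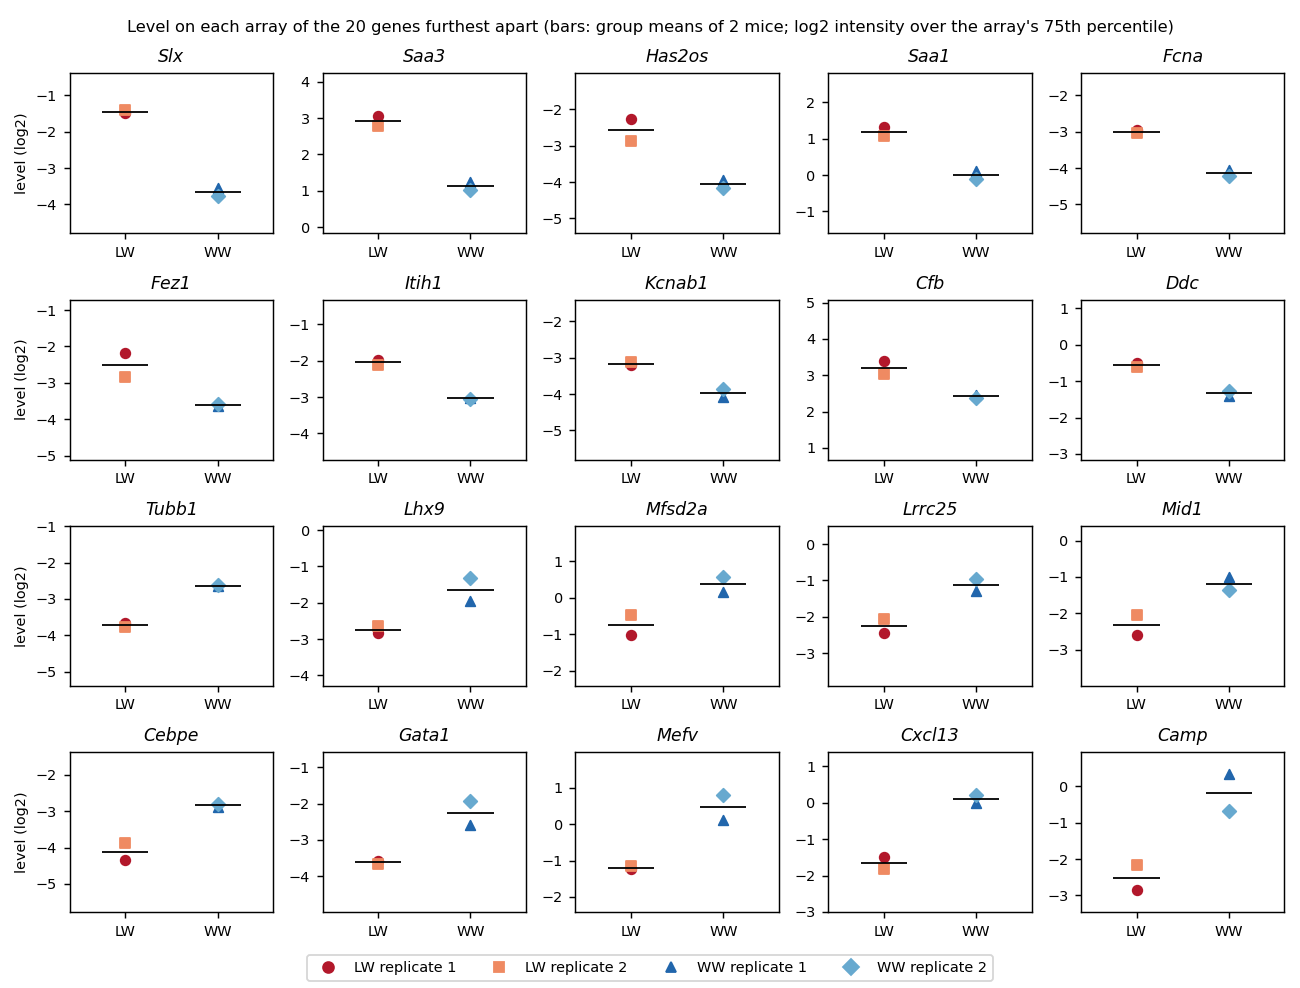
Level of the 20 genes furthest apart on each array (log2 intensity over the 75th percentile of the array), LW left and WW right, with bars at the means of 2 mice. In every panel the groups are apart by more than the mice within a group, and Camp (-2.34) and Slx (2.22) have the widest gaps between means.

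Genes of monocytes and of recruited macrophages leaned below WW without passing. Of 27 measured, 24 lay below 0, with a median of -0.15. In 10 both LW mice were below both WW mice, against 19.5% of all genes. Without LW replicate 2, 18 of 27 lay below 0. The list mean was -0.12 and -0.32 in LW mice, against -0.03 and 0.03 in WW mice. Csf1r, the receptor that macrophages need to survive, was at 4.73 and 4.46 in LW mice and 4.73 and 4.73 in WW mice.
Receptors that guide monocytes were further apart. Ccr2, which brings inflammatory monocytes out of the marrow, was at 0.42 and -0.34 in LW mice and 0.64 and 0.72 in WW mice (-0.64, SE 0.27). Cx3cr1, the fractalkine receptor of patrolling monocytes, was at 1.55 and 1.28 in LW mice and 1.64 and 2.01 in WW mice (-0.41, SE 0.17). Treml4, found on patrolling monocytes, was at -0.68 and -0.70 in LW mice and 0.08 and 0.44 in WW mice (-0.95, SE 0.15, limma adjusted p = 0.753). In all 3 both LW mice lay below both WW mice. F13a1, a clotting transglutaminase held by monocytes and platelets, was at 1.04 and 1.01 in LW mice and 1.61 and 1.96 in WW mice (-0.76, SE 0.14).
Other genes of these cells went the other way or were level. The haemoglobin scavenger receptor Cd163 was at -1.45 and -1.15 in LW mice and -2.20 and -1.66 in WW mice (0.63, SE 0.22). The complement subunit C1qa, made by macrophages, was at 1.103 and 0.67 in LW mice and 0.99 and 0.79 in WW mice, with an interval of -0.48 to 0.47.

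Alveolar macrophage genes did not separate the groups. Of 24 measured, 14 lay below and 10 above 0, with a median of -0.03. Siglecf, the sialic acid lectin that marks these cells, was at -1.74 and -1.02 in LW mice and -0.73 and -1.48 in WW mice. The scavenger receptor Marco differed more between mice of a group than between groups, at -0.57 and 1.72 in LW mice and 1.73 and -0.39 in WW mice. Its interval ran from -2.89 to 2.71, so a several-fold difference in either direction was not detectable with these mice. The chitinase-like protein Chil3 was at 6.09 and 5.20 in LW mice and 5.79 and 6.15 in WW mice.

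Neutrophil genes were spread within both groups, and Camp and Cebpe, picked by size, were among the genes furthest below WW. Of 22 measured genes 15 lay below and 7 above 0, with a median of -0.32 (from -0.49 to -0.07 as each mouse was left out). Both LW mice were below both WW mice in 7 of the 22 and above in 2, against 19.5% and 13.9% of all genes. Beside Camp, described above, Cebpe, the transcription factor of late granulocyte precursors, was at -4.35 and -3.89 in LW mice and -2.87 and -2.80 in WW mice (-1.28, SE 0.18, limma adjusted p = 0.753). Ngp, another granule protein, was not well above background in either LW mouse and so stood outside the test. It was at -5.72 and -4.37 in LW mice, against -1.85 and -2.63 in WW mice, at least 4.69-fold lower in LW. The limit was 6.14-fold with WW replicate 1 alone and 3.58-fold with WW replicate 2 alone. A gene above background in WW alone can only be lower in LW, so its direction is no separate evidence.
Genes of mature neutrophils did not follow as one. The chemokine receptor Cxcr2 was at -1.63 and -0.63 in LW mice and -0.63 and 0.57 in WW mice. The calgranulin S100a9 was at 5.44 and 6.66 in LW mice and 6.38 and 7.49 in WW mice, so the groups overlapped. The surface protein Ly6g was at 1.82 and 1.88 in LW mice and 1.91 and 1.61 in WW mice. Stfa1, a cysteine protease inhibitor of the stefin A cluster, had a positive difference, at -1.96 and -0.03 in LW mice and -3.14 and -1.98 in WW mice.

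Among dendritic cell genes, 10 of 16 lay below 0. The groups did not overlap in 7, all with LW below WW, which held for 19.5% of all genes. Ccl17, a chemokine of activated dendritic cells, was at 1.02 and -0.20 in LW mice and 1.70 and 1.59 in WW mice (-1.23, SE 0.42). Cd207, a lectin that dendritic cells of the mouse lung carry, was at -2.73 and -3.48 in LW mice and -1.75 and -2.14 in WW mice (-1.16, SE 0.29). Batf3, a factor that those cells require, was at -1.41 and -2.27 in LW mice and -0.94 and -1.08 in WW mice. LW replicate 2 was the lower LW mouse in each of the 3 genes. Zbtb46, a factor of conventional dendritic cells, overlapped, at -0.89 and -1.20 in LW mice and -0.83 and -1.27 in WW mice.

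Platelet genes had the lowest median of the lists described. Of 18 measured genes 17 lay below 0, with a median of -0.65, and in 13 both LW mice were below both WW mice, against 19.5% of all genes. As each mouse was left out the median ran from -0.98 to -0.34, and other scalings gave -0.65 to -0.39. Ppbp, the platelet basic protein, was at 1.54 and 0.97 in LW mice and 1.94 and 2.58 in WW mice (SE of the difference 0.30, limma adjusted p = 0.854). The von Willebrand receptor subunit Gp1ba was at -2.80 and -3.22 in LW mice and -2.21 and -1.93 in WW mice (-0.94, SE 0.19). The integrin Itga2b was at -2.58 and -2.93 in LW mice and -2.02 and -1.69 in WW mice (-0.90, SE 0.18). In these genes both LW mice lay below both WW mice. Tubb1 was at -3.68 and -3.77 in LW mice and -2.65 and -2.61 in WW mice (-1.09, SE 0.09, limma adjusted p = 0.677), with the mice of each group close together. Platelet factor 4 (Pf4) overlapped between the groups, at 3.21 and 2.35 in LW mice and 2.86 and 3.26 in WW mice. No gene of the list passed the test.

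Red cell genes lay below WW mainly in LW replicate 2. Of 11 measured, 10 lay below 0 (median -0.54), while the list mean was -0.03 and -0.74 in LW mice, against 0.01 and -0.01 in WW mice. The globin Hba-a1 was at 8.60 and 7.94 in LW mice and 8.79 and 8.98 in WW mice, and the haem synthesis enzyme Alas2 at 1.11 and 0.29 in LW mice and 1.24 and 1.33 in WW mice. LW replicate 2 was the lowest of the 4 mice in both. Gata1, the transcription factor shared by red cell and megakaryocyte precursors, was below WW in both LW mice, at -3.57 and -3.66 in LW mice and -2.59 and -1.92 in WW mice (-1.36, SE 0.24, limma adjusted p = 0.773).

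Lymphocyte genes went with single mice. Of 17 measured B cell genes 16 lay above 0 (median 0.28), with list means of -0.01 and 0.56 in LW mice, against -0.12 and 0.12 in WW mice. Without LW replicate 2, 9 of 17 lay below 0. The immunoglobulin segments went with the other LW mouse: 115 of 157 lay above 0, and 91 did so without LW replicate 1. Jchain, which joins antibody molecules, was at 5.45 and 4.60 in LW mice and 4.26 and 4.27 in WW mice (0.76, SE 0.30).
T and NK cell genes were level on average. The T cell list had a median of -0.01 over 23 genes, and the receptor subunit Cd3e was at 2.07 and 2.16 in LW mice and 1.92 and 2.33 in WW mice. The NK list had a median of -0.02 over 18 genes (from -0.33 to 0.30 as each mouse was left out), with means of -0.30 and 0.33 in LW mice, against -0.03 and 0.03 in WW mice. The NK receptor Klra8 was at -0.27 and 0.71 in LW mice and -0.01 and 0.16 in WW mice.

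**Figure D4:**
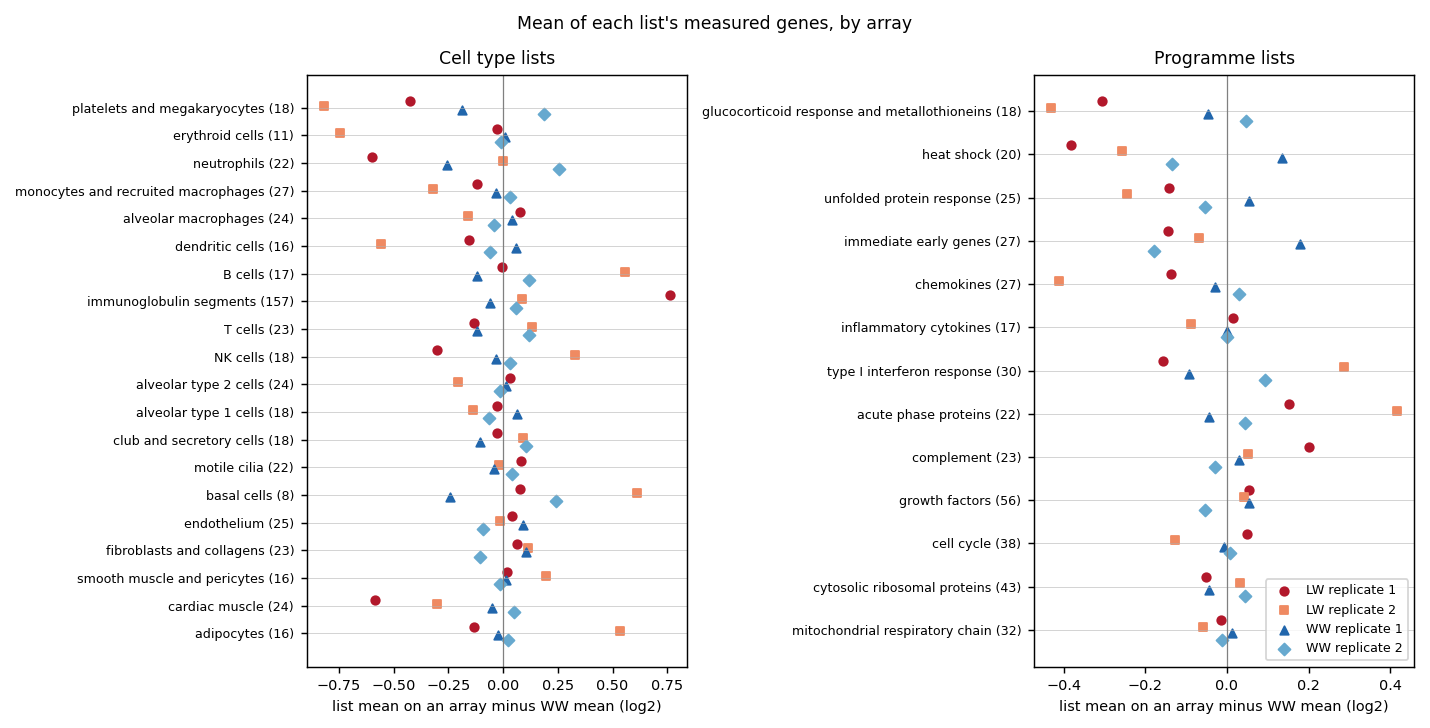
Mean of each list's measured genes on each array, minus the WW mean of the same genes (log2, horizontal). Platelet, cardiac muscle and glucocorticoid means lie below both WW arrays in both LW mice, while red cell, B cell and immunoglobulin means are set apart in 1 LW mouse.

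The alveolar epithelium differed little. Of 24 type 2 cell genes 21 lay below 0, with a median of -0.08, and 10 did so without LW replicate 2, where the median was 0.04. Surfactant protein B (Sftpb) was at 8.11 and 8.12 in LW mice and 8.23 and 8.29 in WW mice. Its 2 probes above background went in opposite directions, with differences of -0.15 for this probe and 0.11 for the other. The surfactant collectin Sftpd was at 7.62 and 7.19 in LW mice and 7.55 and 7.58 in WW mice. Il33, an alarmin that type 2 cells hold in the nucleus, was at 2.34 and 2.30 in LW mice and 2.63 and 2.66 in WW mice (-0.33, SE 0.08, limma adjusted p = 0.836). The groups were apart in Il33 by more than either pair of mice.
Type 1 cells, the flat cells of gas exchange, gave small differences too. Ager, their membrane receptor, was at 8.02 and 8.02 in LW mice and 8.25 and 8.24 in WW mice (-0.23, SE 0.08, limma adjusted p = 0.934), and the water channel Aqp5 at 5.36 and 5.31 in LW mice and 5.59 and 5.54 in WW mice. Of 7 probes of Ager above background, differences ran from -0.23 to 0.03. The median of the list over 18 genes was -0.04.
Airway genes were close as well. The ciliary list had a median of 0.03 over 22 genes, with its regulator Foxj1 at 2.11 and 2.05 in LW mice and 1.96 and 2.10 in WW mice. The basal cell list had 7 of 8 genes above 0 and a median of 0.46, which other scalings took to as little as 0.13. Without LW replicate 2 its median was 0.10, with 4 of 8 genes above 0. Its keratin Krt14 was at -2.56 and -2.31 in LW mice and -2.91 and -2.83 in WW mice, while Trp63, the factor that defines basal cells, was at 3.10 and 3.10 in LW mice and 3.09 and 3.25 in WW mice.

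Endothelial genes had a median of 0.01 over 25 genes, with the junction cadherin Cdh5 at 4.06 and 4.07 in LW mice and 4.09 and 4.09 in WW mice. Of 23 fibroblast and collagen genes 19 lay above 0, with a median of 0.11 that turned to -0.02 without WW replicate 2. Decorin (Dcn), a collagen-binding proteoglycan, was at 5.36 and 5.32 in LW mice and 5.15 and 4.88 in WW mice (0.33, SE 0.12). Collagen Col1a1 overlapped, at 3.43 and 3.28 in LW mice and 3.38 and 3.08 in WW mice. Smooth muscle and pericyte genes had a median of 0.11 over 16 genes, and 0.03 without LW replicate 2.

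Heart muscle genes, which in the mouse lung come with the muscle sleeves of the pulmonary veins and with any attached heart tissue, lay below WW. Of 24 measured 23 lay below 0 (median -0.45). In 18 both LW mice were below both WW mice, against 19.5% of all genes. The list mean was -0.59 and -0.30 in LW mice, against -0.05 and 0.05 in WW mice, and leaving out each mouse gave medians of -0.57 to -0.25. It was below WW in the other groups too, at -0.27 and -0.46 in LL mice and -0.67 and -0.92 in WL mice. Nppa, the atrial natriuretic peptide, was at 1.78 and 2.34 in LW mice and 3.20 and 4.11 in WW mice (-1.60, SE 0.37, limma adjusted p = 0.8). The calcium pump regulator Sln was at 3.67 and 3.90 in LW mice and 4.34 and 4.40 in WW mice (-0.59, SE 0.11), and the mitochondrial creatine kinase Ckmt2 at 0.59 and 0.68 in LW mice and 1.22 and 1.23 in WW mice (-0.59, SE 0.09, limma adjusted p = 0.753). The amount of vein or heart tissue in a sample was not measured.

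Hormone and stress response genes were other lists that lay below WW in both LW mice. Of 18 genes of the glucocorticoid response and metallothioneins 17 lay below 0 (median -0.35). In 14 both LW mice were below both WW mice, against 19.5% of all genes. Klf9, a transcription factor that glucocorticoids induce, was at 2.81 and 2.92 in LW mice and 3.31 and 3.40 in WW mice (-0.49, SE 0.09, limma adjusted p = 0.794). Tsc22d3, the glucocorticoid-induced leucine zipper, was at 4.46 and 4.69 in LW mice and 4.98 and 5.07 in WW mice (-0.45, SE 0.12). Zbtb16, another such target, was at 2.16 and 1.23 in LW mice and 2.42 and 2.94 in WW mice.
Chaperones lay below WW in the cytosol and in the endoplasmic reticulum. Of 20 heat shock genes 16 lay below 0 (median -0.27), and of 25 genes of the unfolded protein response 24 did (median -0.16). Hsph1, a partner of Hsp70, was at 2.09 and 2.42 in LW mice and 3.40 and 2.98 in WW mice (-0.94, SE 0.20, limma adjusted p = 0.8). Hyou1, a chaperone of the endoplasmic reticulum, was at -1.69 and -1.66 in LW mice and -1.16 and -1.14 in WW mice (-0.53, SE 0.08, limma adjusted p = 0.753). The inducible Hsp70 gene Hspa1a overlapped between the groups, at 0.53 and 0.71 in LW mice and 1.01 and 0.45 in WW mice.
Clock genes had a median of -0.02 over 17 genes, with differences from -0.43 to 0.52. Both LW mice were above both WW mice in 2 of them and below in 5, against 13.9% and 19.5% of all genes. The repressor Nr1d1 was above WW, at 0.87 and 0.86 in LW mice and 0.36 and 0.34 in WW mice (0.52, SE 0.08, limma adjusted p = 0.753), and the output factor Dbp was at 4.55 and 4.63 in LW mice and 4.32 and 4.31 in WW mice. The activator Arntl was at -1.65 and -1.77 in LW mice and -1.68 and -1.71 in WW mice. The hour of harvest is not given in the labels used here, and its part was not tested.

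Inflammatory genes went in both directions. Interleukin 1 beta (Il1b) was at 1.18 and 1.87 in LW mice and 2.40 and 2.67 in WW mice (-1.01, SE 0.26, limma adjusted p = 0.836). Its natural antagonist Il1rn was at -2.09 and -2.36 in LW mice and -1.87 and -1.58 in WW mice. Socs3, the feedback inhibitor of interleukin 6 signalling, was at 1.98 and 1.92 in LW mice and 2.47 and 2.37 in WW mice (-0.47, SE 0.09, limma adjusted p = 0.794). In these 3 genes both LW mice lay below both WW mice. Over the inflammatory cytokine list 10 of 17 genes lay above 0, with a median of 0.07 (from -0.10 to 0.10 as each mouse was left out). In that list both LW mice were above both WW mice in 3 genes and below in 5, against 13.9% and 19.5% of all genes. Of 27 chemokines 16 lay below 0 (median -0.17), and the monocyte chemokine Ccl2 was level, at -0.17 and -0.76 in LW mice and -0.14 and -0.87 in WW mice.
Some acute phase and complement genes lay on the other side. Beside Saa3, its relative Saa1 was at 1.32 and 1.07 in LW mice and 0.10 and -0.12 in WW mice. Complement factor B (Cfb), a protease of the alternative pathway, was at 3.40 and 3.02 in LW mice and 2.47 and 2.37 in WW mice (0.79, SE 0.15, limma adjusted p = 0.794). In all 3 genes both LW mice lay above both WW mice. Over the acute phase list 14 of 22 genes lay above 0, with a median of 0.12, and 11 without LW replicate 1, with a median of 0.02. Both LW mice were above both WW mice in 6 of them and below in 5, against 13.9% and 19.5% of all genes. Of 23 complement genes 15 lay above 0 (median 0.10), and 12 without LW replicate 1 (median 0.00). Lrg1, an acute phase glycoprotein, was on the other side, at 3.39 and 3.37 in LW mice and 3.67 and 4.08 in WW mice.
Proliferation, interferon and growth factor genes were close to level. For genes of cell division the median was -0.03 over 38, with the proliferation antigen Mki67 at 1.34 and 0.95 in LW mice and 1.22 and 1.23 in WW mice. The type I interferon list had a median of 0.06 over 30 genes (from -0.13 to 0.25 as each mouse was left out), with means of -0.16 and 0.29 in LW mice, against -0.09 and 0.09 in WW mice. Of 56 growth factors 34 lay above 0 (median 0.04). The epithelial mitogen Hgf was at -1.78 and -1.57 in LW mice and -1.58 and -1.77 in WW mice, and Fgf9 at -3.09 and -3.10 in LW mice and -3.36 and -3.83 in WW mice. Gdf10, a ligand of the TGF-beta superfamily, was at 0.65 and 0.47 in LW mice and 0.12 and 0.09 in WW mice (0.45, SE 0.10).

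Some genes could not enter the test because they were above background in only 1 of LW and WW. Of 37074 gene names, 41 were above background in both LW mice and neither WW mouse, and 263 the other way. The share of spots above background was 66.3% and 66.9% in LW mice and 66.7% and 72.3% in WW mice, and its part in these counts was not tested. A lower limit of the fold was taken against the lowest signal above background on each array of the dim group. It exceeded 2-fold for 34 of the 41 and for 25 of the 263, and was 1-fold or less for 18 of the 263. The largest limits among genes that could be named were those of major urinary proteins: Mup17 was at -2.16 and 2.91 in LW mice and -6.28 and -5.65 in WW mice, at least 37.7-fold higher in LW. Mup1 was at least 33.9-fold higher, Mup20 at least 17.03-fold, Mup-ps16 at least 16.7-fold, and the liver carboxylesterase Ces3a at least 9.26-fold. These limits rest on LW replicate 2. With LW replicate 1 alone the limits were 6.49-fold for Mup17, 7.03-fold for Mup1, 2.84-fold for Mup20, 2.61-fold for Mup-ps16 and 2.55-fold for Ces3a. Among smaller limits, Mup-ps12 and Mup5 were again higher in LW replicate 2, but not every gene was. Akr1c20 was at -1.63 and -2.15 in LW mice, at least 7.85-fold higher than in WW. Cyp2c50 was at -2.28 and -1.89 in LW mice, at least 6.87-fold higher. Mup17, Mup1 and Mup-ps16 were also above background on 1 LL and 1 WL array each, and Mup20 on 1 LL and 2 WL arrays. In the other set Ngp had the largest limit among genes that could be named. It was followed by Olfr391-ps, at least 2.70-fold lower in LW, Pklr, the red cell and liver pyruvate kinase, at least 2.41-fold, and Tmem252 and Esp4, each at least 2.39-fold. With WW replicate 1 alone the limits were 1.54-fold for Olfr391-ps and 1.52-fold for Pklr.

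The effect of LysM-DTR marrow was also set against its effect in recipients that carried the receptor themselves, LL minus WL, in a fit of all 8 arrays. The WL mice differed from each other, with a median absolute difference per gene of 0.44. The difference of the differences passed limma's test for 23 of 23047 genes (0.0998%), of which 22 were negative and 1 positive. Of the 23 genes, 6 were above background on no LL array and 2 on 1 LL array, since probes were filtered on LW and WW arrays. The alveolar macrophage and monocyte lists held 7 of the 23, out of 51 measured. For C1qa, LL minus WL was -5.83 beside an LW minus WW of -0.01, a difference of -5.83 (SE 0.33, limma adjusted p = 0.0139). For Cx3cr1 it was -6.41 beside -0.41 (limma adjusted p = 0.0319), with 1 of 2 LL arrays above background. Cd163 was above background on neither LL array, so LL had only a limit, at least 11.6-fold lower than WL, beside an LW minus WW of 0.63 (limma adjusted p = 0.0338 on the values as measured). Lyz2 did not pass, at -3.22 beside -0.15 (limma adjusted p = 0.166). The count of 23 was 1 without either LW mouse, 3 or 11 without an LL mouse, 663 or 2677 without a WL mouse, and 0 without either WW mouse.

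**Figure D5:**
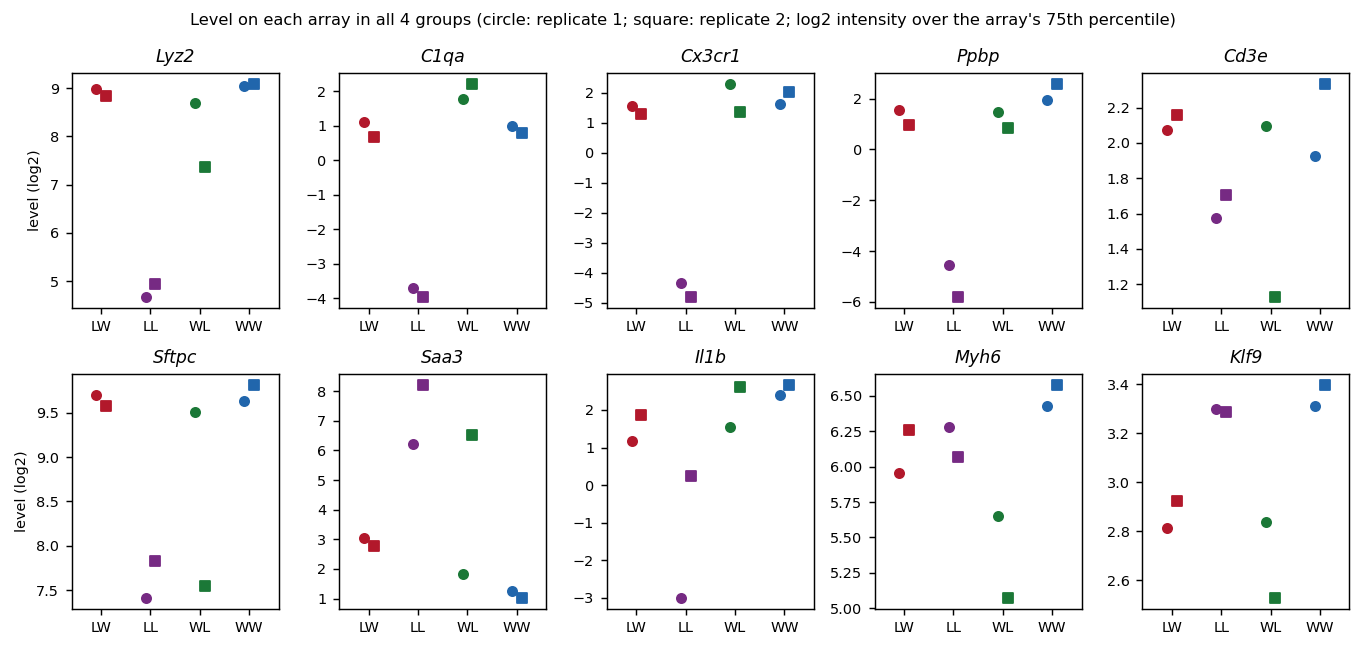
Level of 10 genes on each array in LW, LL, WL and WW mice (log2 intensity over the 75th percentile of the array). LW and WW mice lie together for C1qa, where LW mice are at 1.103 and 0.67, LL mice at -3.70 and -3.97, WL mice at 1.77 and 2.22 and WW mice at 0.99 and 0.79.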

How the data were processed

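Whole lung RNA of 8 chimeric mice was read on 1-colour Agilent arrays, and the 4 LW and WW arrays were compared. Per the file headers, the authors' intensity values are Feature Extraction 11.5.1.1 processed signals, background-subtracted by the scanner software. The deposited series table holds log2 values that match the processed signals up to 1 shift for each array, as checked on the files. Non-uniform and population outlier spots and control spots were left out, and spots of a probe were averaged. Values are log2 intensity minus that of the array's 75th percentile; a probe counted if well above background on all 4 arrays, and a gene was its brightest probe. Probe coordinates are mm9, per the file headers. Of 23047 gene names, 16922 matched RefSeq.

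LW was tested against WW with limma 3.58.1 (R 4.3.3; residual df of 2), with p-values adjusted by Benjamini-Hochberg over the 23047 genes; SE and 95% intervals come from that fit. The number of arrays limits the precision. The script was tested on simulated data. Alternatives covered background correction, scaling, the filter, the choice of probe, the arrays in the fit, each mouse left out and the replicate number as a block. Replicate numbers were not taken to pair the mice: deviations of same-numbered mice correlated at r = 0.05 between LW and WW, 0.23 between LL and WL, and -0.11 to 0.06 between the other pairs of groups.

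Members and lists were chosen with earlier results of these data known, and the hepatocyte list after its values were seen. Named genes are the 10 furthest apart in each direction, the first measured entries and the largest non-overlapping members of each list, a fixed set of markers, and the 5 largest limits in each direction. Predicted genes and receptor segments were counted but not named.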

Additional observations from a re-analysis of the deposited data

Results flagged for a closer look

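In 23 genes the effect of LysM-DTR marrow differed between LysM-DTR and wild-type recipients, by limma's test of LL minus WL less LW minus WW over all 8 arrays. The difference was -5.83, -5.71 and -4.44 on the log2 scale for the complement subunits C1qa, C1qc and C1qb, which were above background on all 8 arrays. It was -6.01 for the fractalkine receptor Cx3cr1, above background on 1 of 2 LL arrays. For the scavenger receptor Cd163, above background on neither LL array, the measured values gave -5.24 and the limit that background allows was -4.17. No gene passed without either WW mouse, and the WL mice differed from each other.

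Outside the tested genes, 41 were above background in both LW mice and in neither WW mouse. The largest lower limits of the fold, LW over WW, were 37.7 for Mup17, 33.9 for Mup1, 17.03 for Mup20, 16.7 for Mup-ps16 and 9.26 for Ces3a. With LW replicate 1 alone they were 6.49, 7.03, 2.84, 2.61 and 2.55 in the same order of genes. Mup17, Mup1 and Mup-ps16 were also above background on 1 LL and 1 WL array each, and Mup20 on 1 LL and 2 WL arrays. Ces3a was above it on no LL or WL array. In the other direction 263 genes were above background in both WW mice and neither LW mouse, and many of them were also above it in LL and WL mice. The limit exceeded 2-fold for 34 of the 41 genes and for 25 of the 263. The source of these transcripts was not tested.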

How the results depend on the processing

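Of 22 alternatives, 20 called no gene between LW and WW, and the smallest adjusted p among these 20 was 0.0579. Leaving out each mouse gave 0 to 6 calls. The 6, all higher and without LW replicate 1, were Gc, Mup19, Pzp, Serpina1a, Serpina1c and Serpina1e, with LW replicate 2 alone assumed to vary like the WW mice. Another fit took all 8 arrays and probes above background in both arrays of at least 1 of the 4 groups. It was chosen after seeing the data and called 14 of 25830 genes. Most of these were above background in only 1 of LW and WW, so their differences were taken against values at background. Akr1c20, for 1, was at -1.63 and -2.15 in LW mice and -6.80 and -7.42 in WW mice. The direction of such genes is no separate evidence, and the cause of the calls was not tested. At an unadjusted p under 0.05, counts ran from 243 to 1948 against 1218. They were 276 with all 8 arrays, 828 with LL, LW and WW arrays, 243 with WL, LW and WW arrays, 318 with a minimum fold and 1948 without WW replicate 1. Non-overlapping genes numbered 14618 to 16428 with a mouse left out, against 7678, since 1 array then stands for a group. With the replicate number as a block 0 genes passed between LW and WW (1426 at an unadjusted p under 0.05), and 307 were at that level with all 8 arrays. With the replicate block the count of genes whose marrow effect differed between recipients was 2, against 23, and leaving out each mouse gave 0 to 2677. Of 234 named genes, 67 changed sign under some alternative. Signal over background limits low genes, and 2 mice a group limit all.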
